A study of Mus musculus with 8 samples.

Results

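The genes described here make up the machinery that copies DNA and the enzymes that supply its building blocks. They are 44 mouse genes, each found by its symbol among the 24054 named rows of the deposited table of counts per gene, and all 44 passed the filter on low counts that left 11291 genes for testing. By role, 12 act in origin licensing, 8 in origin firing and the replicative helicase, 9 as the sliding clamp, its loader and single-strand DNA binding proteins, 10 as polymerases, primase and lagging strand enzymes, and 5 in deoxynucleotide supply.

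Replication starts in G1, when the origin recognition complex (Orc1 to Orc6), Cdc6 and Cdt1 load the ring-shaped helicase core, the hexamer of Mcm2 to Mcm7, onto origins. At the start of S phase the kinase Cdc7 with its activator Dbf4, together with cyclin-dependent kinases, turns the loaded ring into an active helicase by adding Cdc45 and the GINS proteins. DNA polymerase alpha with primase then lays down primers, polymerases delta and epsilon extend them on the clamp Pcna, and Fen1 and Lig1 join the lagging strand, while ribonucleotide reductase (Rrm1 and Rrm2), thymidylate synthase (Tyms), thymidine kinase (Tk1) and the dUTPase Dut supply and clean the nucleotide pool. In cycling cells many of these genes are transcribed under E2F factors at the passage into S phase.

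PolyA-selected RNA was sequenced from 2 stable lines made from WEHI-231 cells, a murine B lymphoma used as a model of immature B cells, which cease to divide and die once their antigen receptor is crosslinked. The groups were the miR-148a line with anti-IgM, the miR-148a line unstimulated, the control line with anti-IgM and the control line unstimulated, each with 2 libraries. Anti-IgM antibody, which crosslinks that receptor, was given at 2 ug/ml for 14 h, and the line named WEHI-miR-148a is labelled for the microRNA miR-148a, while the line named WEHI-control is its control. The sources used here do not say how the lines were made or whether each is 1 clone, nor that the replicates are separate cultures. The p-values thus rest on the spread among the libraries at hand, and this spread may be technical. The labels carry a run number that is shared by replicate 1 of every group and another shared by replicate 2.

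Total counts per library ran from 5810227 to 18660373, with replicate 1 of each anti-IgM group the shallowest, and a member of the gene set had at least 121 counts in every library. Levels are given as CPM (the count of a gene in a library scaled to 1000000 counts) with TMM factors, which adjust library totals for composition. Of 8 listed markers of the B lineage 7 had a row, at 48.2 to 895 CPM each, and their summed level was 2431 and 2702 CPM in miR-148a cells with anti-IgM, against 1903 to 2197 CPM in the other 3 groups. The same 2 libraries held the lowest TMM-scaled sums of the members, given below, and what the marker level has to do with the member values was not tested. Listed markers of T cells, monocytes and macrophages, fibroblasts and erythroid cells stayed at or below 1.29 CPM each, with Lyz2, S100a8, S100a9, Col1a2 and Hbb-b1 at 0 in every library. Selection of polyA RNA leaves out mature microRNAs, and the Mir148a row held 1 count in 1 library and 0 in the other 7, so that row says nothing about whether the miR-148a label holds.

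Promoter sequence is shown for 5 licensing genes, chosen by their calls with anti-IgM: Orc1, Orc2 and Mcm2 were the members called lower in both lines, and Mcm5 and Mcm6 are partners of Mcm2 in the hexamer that were not called. Whether the response differs between these genes was not tested. Each window runs from 250 bases before to 50 bases after a start annotated in RefSeq, read 5′ to 3′ on GRCm38.p6. The gene spans given elsewhere are from GENCODE, whose starts can differ. That of Mcm5, at 75109569, lies past the end of its window. Capitals mark a match to an E2F motif, searched as TTTCGCGC, TTTGGCGC and TTCCCGCC and their reverse complements GCGCGAAA, GCGCCAAA and GGCGGGAA, with overlapping matches counted.
Orc1, chr4:108579204-108579503, plus strand: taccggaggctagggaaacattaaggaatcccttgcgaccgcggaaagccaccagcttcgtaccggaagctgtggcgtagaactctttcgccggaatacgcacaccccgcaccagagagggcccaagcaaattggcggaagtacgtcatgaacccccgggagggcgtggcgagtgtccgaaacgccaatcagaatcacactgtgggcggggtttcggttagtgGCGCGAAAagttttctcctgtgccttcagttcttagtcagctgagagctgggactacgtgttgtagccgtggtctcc
Orc2, chr1:58505060-58505359, minus strand: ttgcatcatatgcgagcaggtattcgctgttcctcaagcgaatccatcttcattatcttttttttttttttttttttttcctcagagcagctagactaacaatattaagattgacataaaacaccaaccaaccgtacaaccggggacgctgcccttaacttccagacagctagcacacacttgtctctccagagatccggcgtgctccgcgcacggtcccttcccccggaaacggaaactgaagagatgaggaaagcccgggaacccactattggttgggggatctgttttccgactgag
Mcm2, chr6:88898731-88899030, minus strand: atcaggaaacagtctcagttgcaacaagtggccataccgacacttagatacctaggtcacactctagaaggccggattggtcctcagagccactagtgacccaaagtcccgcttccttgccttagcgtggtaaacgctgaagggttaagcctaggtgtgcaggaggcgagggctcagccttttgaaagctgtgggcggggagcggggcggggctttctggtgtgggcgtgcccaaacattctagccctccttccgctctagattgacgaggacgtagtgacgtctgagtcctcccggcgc
Mcm5, chr8:75109259-75109558, plus strand: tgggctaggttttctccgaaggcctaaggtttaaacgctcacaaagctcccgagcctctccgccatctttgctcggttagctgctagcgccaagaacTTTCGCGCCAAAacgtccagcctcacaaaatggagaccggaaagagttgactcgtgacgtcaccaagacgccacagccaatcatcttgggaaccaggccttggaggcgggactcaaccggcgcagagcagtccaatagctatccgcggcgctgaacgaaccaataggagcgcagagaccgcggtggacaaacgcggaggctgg
Mcm6, chr1:128359656-128359955, minus strand: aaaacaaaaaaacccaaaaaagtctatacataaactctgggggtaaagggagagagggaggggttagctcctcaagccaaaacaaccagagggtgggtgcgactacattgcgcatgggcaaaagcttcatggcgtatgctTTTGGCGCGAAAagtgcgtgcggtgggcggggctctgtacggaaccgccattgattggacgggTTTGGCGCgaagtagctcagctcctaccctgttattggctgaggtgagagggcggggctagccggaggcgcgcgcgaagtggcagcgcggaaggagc

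In these windows Orc1 held 1 match, whose first base stands at position -27 from the RefSeq start, Mcm5 held 2 overlapping matches, and Mcm6 held 3, of which 2 overlap. No match was found in the windows printed for Orc2 and Mcm2, which says only that these letters are not in them. A window was found for 36 of the 44 members, and 15 of the 36 (41.7%) held a match in some window, against 3.39% of 27025 genes in the same table. The members with a match were Orc1, Cdt1, Mcm3, Mcm5, Mcm6, Mcm7, Cdc7, Rfc3, Rfc4, Pola1, Prim1, Pold1, Pole2, Lig1 and Rrm1. Gmnn, Mcm4, Gins1, Gins2, Gins4, Rfc2, Prim2 and Pole had no window in the table. The median log2 fold change with anti-IgM in the miR-148a line was -0.12 over the 15 members with a match and -0.13 over the 21 with a window and no match, and in the control line it was -0.03 and -0.01. These are descriptions of letters in a window and not of binding sites.

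A microRNA pairs with target transcripts mainly through its seed, bases 2 to 8, shown in capitals in the first line. The mature miR-148a sequence was read from RefSeq, and the longest annotated 3′ UTR of each gene was searched for the 7 bases that pair with the seed, TGCACTG, in capitals in the other lines, on the strand of the transcript in GRCm38. Positions are counted from the first base of the UTR.
mmu-miR-148a-3p: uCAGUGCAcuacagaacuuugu
Cdc7, site at bases 353 to 359: gtgtggtcTGCACTGtgtgcatg
Dut, site at bases 153 to 159: tgtaagtcTGCACTGtgagcatg
Dut, site at bases 459 to 465: ttcttctcTGCACTGgtgctgtg

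A seed match stood in the UTR of 2 of the 44 members, Cdc7 with 1 and Dut with 2, all 3 of the 7mer-m8 type, which lacks the A opposite the first base of the microRNA. Over all genes with an annotated 3′ UTR 12.3% of 21685 held a match, and the median UTR was 550 bases long in the members and 920 bases over all genes. Dut, which lies on chr2:125247190-125258608 and removes dUTP so that uracil is not built into DNA, is described with the differences between the lines below. Cdc7, the kinase that fires licensed origins, had 65.6 and 57.7 CPM in miR-148a cells with anti-IgM, against 80.5 and 59.0 CPM in control cells with anti-IgM. Its libraries overlapped between the lines, and the difference was -0.17 ± 0.17 on the log2 scale (± SE here and for every log2 fold change; adjusted p = 0.656).

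The members were well expressed. The median of their mean levels was 121 CPM, against 32.5 CPM over all tested genes. Summed over the 44 members, the level was 6654 and 6825 CPM in miR-148a cells with anti-IgM, against 6982 and 7214 CPM without it. Control line sums were 7497 and 7334 CPM with anti-IgM, against 7505 and 7476 CPM without it. With TMM scaling the miR-148a cells with anti-IgM thus held the 2 lowest sums of the 8 libraries. This order depends on the scaling. As a plain share of the counts in named rows, the members made up 0.678 and 0.704% there, against 0.679 and 0.710% without anti-IgM. The control line shares were 0.772 and 0.745% with anti-IgM, higher than the 0.727 and 0.729% without it. In bulk libraries fewer cells that hold a transcript and less of it per cell cannot be told apart.

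Scaled to the joint length of all annotated exons of a gene, the level in unstimulated control cells was highest for Mcm5 (136.7 CPM per kb) and Rrm2 (134 CPM per kb). Mcm4, Pcna, Mcm6 and Mcm3 followed at 108, 105, 105 and 101 CPM per kb. At the other end stood Gins2, Gins3 and Pola1 at 6.16, 8.09 and 9.46 CPM per kb. Among the hexamer subunits Mcm2 had the lowest level per length, 51.7 CPM per kb, and Mcm7 the next, 75.7 CPM per kb. The length joins the exons of all annotated transcripts and can exceed that of the transcript in use. It was 6956 bases for Mcm2 and 4426 bases for Mcm7. Before scaling Mcm2 stood above Mcm7, at means of 360 and 335 CPM, so these orders depend on the annotation.

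**Figure D1:**
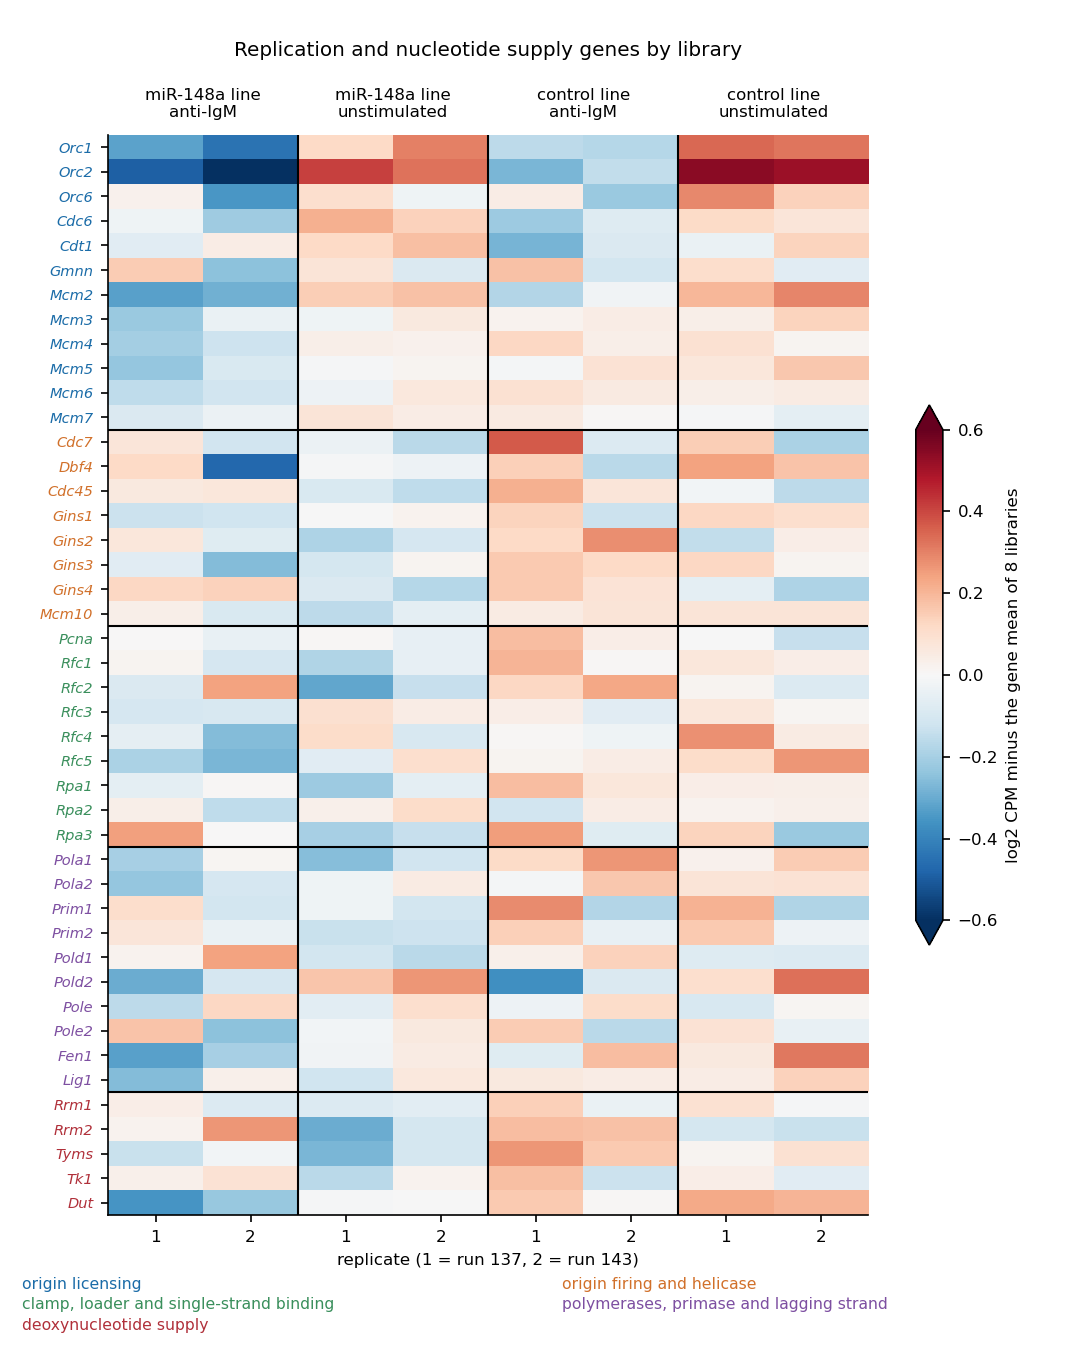
Each row is a gene, grouped by role, and each column a library; colour is log2 CPM minus the mean of the gene over the 8 libraries, from blue (lower) to red (higher). Orc2 shows the widest span, dark blue in miR-148a cells with anti-IgM and dark red in both unstimulated groups, while Mcm3 to Mcm7 and most fork genes stay near the mean.

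Across the 8 libraries the highest level of a member was between 1.12 and 2.68 times its lowest, with a median of 1.33 times. Mcm7 had the smallest span and Orc2 the largest. The heat map of the members by library shows these spans gene by gene.

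With anti-IgM, 4 members were called lower and 1 higher in the miR-148a line, and 3 were called lower and none higher in the control line, at an adjusted p under 0.05 over all 11291 genes (edgeR's quasi-likelihood F test with Benjamini-Hochberg adjustment). Orc1, Orc2 and Mcm2 were called lower in both lines, Pold2 was called lower in the miR-148a line and Rrm2 was called higher there. The responses of the lines compare different libraries. Their calls are not independent, since the spread was estimated from all 8 libraries together and the lines share the run numbers. Over all tested genes 14% were called lower and 14.7% higher in the miR-148a line, and 7.45% lower and 9.6% higher in the control line. The members called lower were thus 4 of 44 in the miR-148a line and 3 of 44 in the control line, shares that do not exceed those of all genes. For the 0 members called higher in the control line, 6 members had an unadjusted p under 0.05 in either direction there, as had 3649 of all genes, and DESeq2 also called 0 higher and 4 lower. Leaving out 1 library at a time gave 3 to 7 called members in the miR-148a line. The 7 came without replicate 1 of its anti-IgM group, and there were 3 without any 1 of its other 3 libraries or either unstimulated control library. In the control line the count was 0 without replicate 1 of its anti-IgM group and 1 without any other control library.

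With the replicate number as a block, which compares libraries within a run, 4 members were called higher and 9 lower in the miR-148a line, where 22.8% and 23.3% of all genes were. The control line had 2 called higher and 7 lower with the block, against 17.6% and 17.2% of all genes. The groups of a line did not overlap, each library of anti-IgM lying below each unstimulated one, for 17 members in the miR-148a line and 11 in the control line. Over all genes this held for 32.5% and 28.3%. The reverse held for 9 and 11 members, against 32.9% and 31.1% of all genes.

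The median log2 fold change over the members was -0.10 in the miR-148a line and 0.00 in the control line, against 0.00 and 0.01 over all genes. Split by run, the miR-148a median came to 0.00 for replicate 1 and -0.10 for replicate 2. The control median came to 0.03 and -0.02. Omitting replicate 2 of the miR-148a anti-IgM group moved the miR-148a median to -0.02. Omitting any other single library kept it between -0.11 and -0.08. Scaling by library totals moved it to -0.03, with 0.07 over all genes. For the miR-148a and control lines the median size of change without regard to sign was 0.147 and 0.112 over the members, against 0.309 and 0.252 over all genes. The 95% interval of the fold change lay within 1.5-fold in either direction, a width chosen after the values were seen, for 37 members in the miR-148a line and 39 in the control line. Over all genes this held for 37.7% and 44.6%. The members also stand above most genes in level, and its part in this share was not tested.

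**Figure D2:**
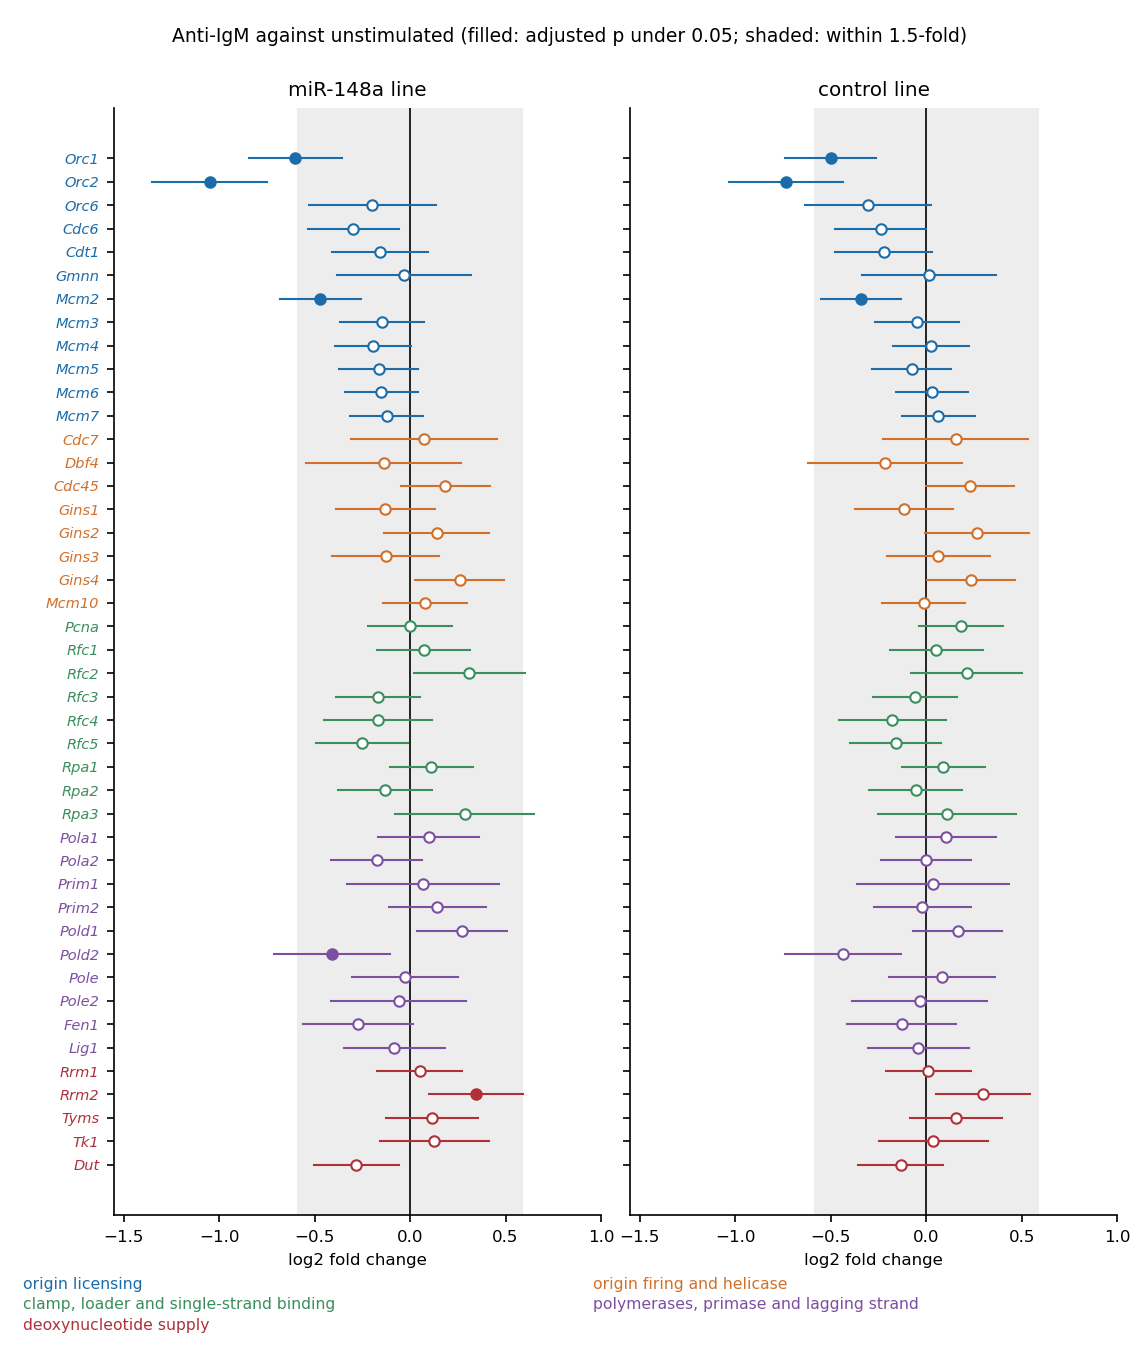
Points are log2 fold changes of anti-IgM against unstimulated for each member, coloured by role, with 95% intervals as bars, in the miR-148a line (left) and the control line (right); filled points passed the adjusted p threshold and the shaded band is 1.5-fold in either direction. Orc1, Orc2 and Mcm2 are filled and left of 0 in both lines, Pold2 (left of 0) and Rrm2 (right of 0) in the miR-148a line alone, and most other intervals lie within the band.

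Origin licensing genes held the members called lower in both lines without the block. Pold2, of the polymerase role, was also lower in both lines, by nearly the same amount, and is described below. Of 12 members, 3 were called lower and 0 higher in each line, and the median log2 fold change was -0.18 in the miR-148a line and -0.15 in the control line. Over all genes 14% and 7.45% were called lower. With the block 5 and 6 of the 12 were called lower and none higher, against 23.3% and 17.2% of all genes. All 12 had a negative value in the miR-148a line and 8 of 12 in the control line, against 49.9% and 48.5% of all genes.

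Orc2, a subunit of the origin recognition complex on chr1:58462771-58505109 (minus strand), had 68.4 and 52.1 CPM in miR-148a cells with anti-IgM, against 128 and 120.4 CPM without it. The control cells had 79.5 and 86.6 CPM with anti-IgM, against 139.7 and 137.1 CPM without it. Every anti-IgM library lay below every unstimulated one in either line, and the 2 lowest values of all were those of the miR-148a line with anti-IgM. On the log2 scale the change was -1.05 ± 0.13 in the miR-148a line (adjusted p = 0.00104), a fold of 0.483, and -0.73 ± 0.13 in the control line (adjusted p = 0.00779), a fold of 0.601. Without replicate 1 of the control anti-IgM group the control line value was -0.68 and missed the threshold (adjusted p = 0.0564).

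Orc2 shares 29.8% of its exon bases with Nif3l1 on the opposite strand, and the sources used here do not say whether counting used the strand. Nif3l1 had 14.0 and 12.1 CPM in miR-148a cells with anti-IgM, against 20.6 and 18.4 CPM without it, and 17.1 and 18.96 CPM in control cells with anti-IgM, against 25.9 and 25.8 CPM without it. It was lower as well, with values of -0.60 ± 0.13 (adjusted p = 0.0104) and -0.51 ± 0.13 (adjusted p = 0.0261) in the lines, at a level well below that of Orc2 in every library. Its part in the Orc2 values was not tested.

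Orc1, the largest subunit of the complex, on chr4:108579423-108614833 (plus strand), had 39.5 and 36.3 CPM in miR-148a cells with anti-IgM, against 53.6 and 60.9 CPM without it. Control cells had 44.2 and 43.7 CPM with anti-IgM, against 62.6 and 61.6 CPM without it. The groups did not overlap in either line, with log2 fold changes of -0.60 ± 0.11 (adjusted p = 0.00385) and -0.50 ± 0.11 (adjusted p = 0.0148). The control line call was lost without any 1 of its 4 libraries, between -0.49 and -0.52 in each case (adjusted p between 0.0652 and 0.0707). An exon overlap with the opposite-strand gene Gm12743 covers 10.8% of its exon bases.

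Mcm2, a subunit of the hexamer on chr6:88883474-88898780 (minus strand), had 242 and 248 CPM in miR-148a cells with anti-IgM, against 336 and 342 CPM without it. The control line had 269 and 299 CPM with anti-IgM, against 349 and 371 CPM without it. Again all anti-IgM libraries lay below all unstimulated ones, and the log2 fold changes were -0.47 ± 0.09 (adjusted p = 0.00609) and -0.34 ± 0.09 (adjusted p = 0.0369). The control line call was lost when libraries were scaled by their totals alone (-0.27, adjusted p = 0.0755), when the 4 control libraries were fitted alone (-0.34, adjusted p = 0.0692) and without any 1 library other than those of the miR-148a line with anti-IgM (-0.27 to -0.42, adjusted p between 0.0530 and 0.191). Orc1, Orc2 and Mcm2 kept their calls in the miR-148a line under every alternative that was run.

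The partners of Mcm2 in the hexamer, Mcm3 to Mcm7, were not called in either line. Mcm5, the member with the highest level of its role, had 429 and 473 CPM in miR-148a cells with anti-IgM, against 502 and 509 CPM without it, and 500.2 and 535 CPM in control cells with anti-IgM, against 528 and 563 CPM without it. Mcm4 had 326 and 344 CPM in miR-148a cells with anti-IgM, against 384 and 382 CPM without it, a difference of -0.19 ± 0.09 (adjusted p = 0.132, and 0.0376 with the block). The groups of the miR-148a line did not overlap for any of the 6 hexamer genes, each lower with anti-IgM, a position that 32.5% of all genes shared. In the control line Mcm2 was apart and lower, Mcm6 and Mcm7 were apart and higher, and the other 3 overlapped. Mcm7 shares 12.6% of its exon bases with other genes, among them Ap4m1 and Cops6 on the opposite strand, and the part of this overlap was not tested.

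Set against the mean of Mcm3 to Mcm7 within each library, the log2 ratio of Mcm2 was -0.57 and -0.63 in miR-148a cells with anti-IgM, against -0.28 and -0.29 without it. For control cells the ratio was -0.65 and -0.49 with anti-IgM, against -0.26 and -0.19 without it. The ratio was thus lower in all 4 anti-IgM libraries than in all 4 unstimulated ones. The log2 ratio of Orc2 to Orc6 was -0.42 and -0.44 in miR-148a cells with anti-IgM and 0.40 and 0.45 without it, and -0.22 and 0.17 in control cells with anti-IgM and 0.35 and 0.47 without it, which again put all 4 anti-IgM libraries lowest. The log2 ratio of Orc1 to Orc6 was -1.21 and -0.96 in miR-148a cells with anti-IgM and -0.85 and -0.54 without it, and -1.07 and -0.82 in control cells with anti-IgM and -0.81 and -0.68 without it. It was lower with anti-IgM within each line, but the anti-IgM and unstimulated libraries overlapped across the lines. These ratios were chosen after the member values were known and carry no test.

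Orc6 had 91.4 and 70.5 CPM in miR-148a cells with anti-IgM, against 96.5 and 88.3 CPM without it, and the groups overlapped. In the control line it had 92.6 and 77.1 CPM with anti-IgM, against 109.7 and 99.1 CPM without it, a difference of -0.30 ± 0.15 that passed with the block alone (adjusted p = 0.186, and 0.0130 with the block). Orc6 shares 6.93% of its exon bases with Vps35 on the opposite strand, which had 130 to 186 CPM. Vps35 was at -0.15 ± 0.17 in the miR-148a line and -0.14 ± 0.17 in the control line, without a call. Its part in the Orc6 values and in the ratios to Orc6 was not tested. Cdc6, the loading factor, had 138 and 121 CPM in miR-148a cells with anti-IgM, against 162 and 155 CPM without it, and 121 and 133 CPM in control cells with anti-IgM, against 152 and 148 CPM without it. Its groups did not overlap in either line, and its values of -0.30 ± 0.11 and -0.24 ± 0.11 missed the threshold (adjusted p = 0.0652 and 0.156) and passed with the block (adjusted p = 0.00906 and 0.0432). Cdt1, the other loading factor, had 70.8 and 80.8 CPM in control cells with anti-IgM, against 83.6 and 94.1 CPM without it, a difference of -0.22 ± 0.11 that passed with the block alone (adjusted p = 0.206, and 0.0415 with the block). Gmnn, which holds Cdt1 inactive after origins have fired, was at -0.03 and 0.02, with overlapping groups in both lines.

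**Figure D3:**
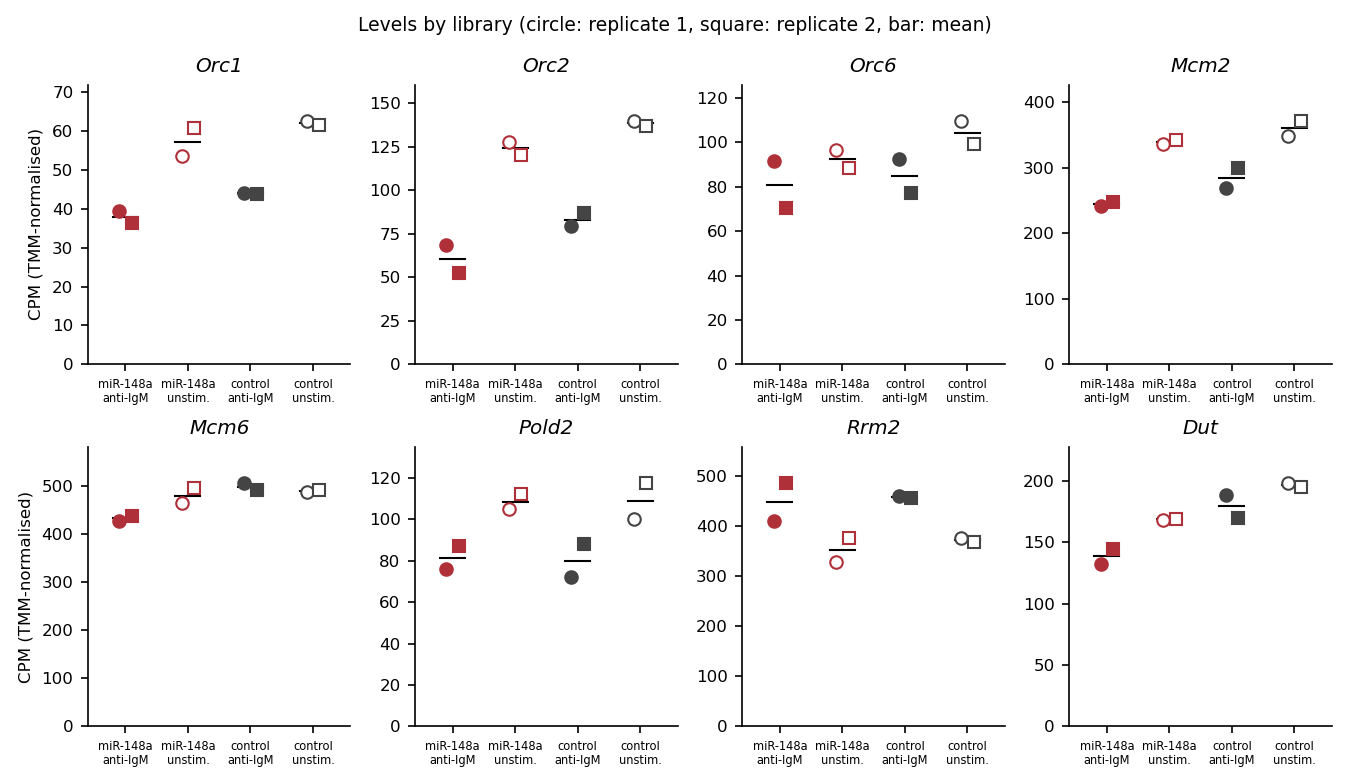
Each panel plots the TMM-scaled CPM of a member in the 8 libraries on a linear axis from 0, with a circle for replicate 1, a square for replicate 2 and a bar at the group mean. In both lines the anti-IgM points of Orc1, Orc2, Mcm2 and Pold2 lie below the unstimulated ones and those of Rrm2 above, and Mcm6 varies little.

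Origin firing and helicase genes had none of 8 members called in either line, with medians of 0.08 in the miR-148a line and 0.11 in the control line. Among all genes 14% were called lower and 14.7% higher in the miR-148a line, and 7.45% and 9.6% in the control line. At such shares a role of 8 members is too small to be told apart from all genes. Cdc45, the helicase activator, had 105 and 106 CPM in miR-148a cells with anti-IgM, against 94.7 and 90.9 CPM without it, and 117 and 106 CPM in control cells with anti-IgM, against 99.8 and 90.4 CPM without it. Its groups were apart and higher with anti-IgM in both lines, and the control line value of 0.23 ± 0.10 passed with the block alone (adjusted p = 0.160, and 0.0359 with the block). Cdc45 shares 5.96% of its exon bases with Ufd1 on the opposite strand, and the part of this overlap was not tested. Gins4, a GINS subunit, had 46.1 and 46.6 CPM in miR-148a cells with anti-IgM, against 39.8 and 37.6 CPM without it, a difference of 0.26 ± 0.10 (adjusted p = 0.0882, and 0.0273 with the block). The value for Mcm10, which helps to activate the helicase and has the highest level of the role before scaling to length, was 0.08 ± 0.10 and -0.01 ± 0.10 in the lines. Of the exon bases of Gins2 67.3% lie opposite Gse1. Gins2 was at 0.14 ± 0.12 in the miR-148a line and 0.27 ± 0.12 in the control line, the highest value of the role there, with groups apart and higher in both and no call. Gse1 was at 0.57 ± 0.17 (adjusted p = 0.0327) in the miR-148a line and 0.48 ± 0.17 (adjusted p = 0.0896, and 0.00255 with the block) in the control line, and its part in the Gins2 values was not tested.

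Clamp, loader and single-strand binding genes also had none of 9 members called, with medians of 0.00 and 0.05. The shares of all genes were those given for the firing role, and this role is also small. Rfc2 and Rfc5 are subunits of the clamp loader and went opposite ways in the miR-148a line with the block. Rfc2 had 114 and 142.9 CPM with anti-IgM, against 97.4 and 110.0 CPM without it (0.31 ± 0.13, adjusted p = 0.103, and 0.0136 with the block). Rfc5 had 127 and 119.7 CPM with anti-IgM, against 138 and 155 CPM without it (-0.25 ± 0.11, adjusted p = 0.110, and 0.0208 with the block). Rfc5 shares 10.7% of its exon bases with Wsb2 on the opposite strand, which was at -0.26 ± 0.18 in this line and not called (adjusted p = 0.322), and Rfc2 shares 15.1% with Lat2. The part of these overlaps was not tested. The groups were apart for Rfc2 and Rfc5, and the other 7 members of the role were not called with or without the block in either line. Rpa1, the large subunit of the single-strand binding complex and the member with the most CPM in the role, had 267 and 281 CPM in miR-148a cells with anti-IgM, against 240.1 and 268 CPM without it, and was at 0.11 ± 0.10 (adjusted p = 0.428). For Pcna the values were 266 and 257 CPM with anti-IgM, against 266 and 256 CPM without it, in the same line.

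Among polymerases, primase and lagging strand enzymes, Pold2 was called lower in the miR-148a line, and medians over the 10 members were -0.04 and -0.01. That is 1 of 10, where 14% of all genes were called lower. In the control line none of the 10 was called, against 7.45% of all genes called lower and 9.6% called higher. Pold2, the second subunit of polymerase delta, had 76.0 and 87.2 CPM in miR-148a cells with anti-IgM, against 105 and 112 CPM without it, and 72.3 and 87.9 CPM in control cells with anti-IgM, against 100.1 and 117 CPM without it. All anti-IgM libraries lay below all unstimulated ones. The values were nearly alike, -0.41 ± 0.13 (adjusted p = 0.0497) and -0.43 ± 0.13 (adjusted p = 0.0564), on either side of the threshold, and both passed with the block (adjusted p = 0.000793 and 0.000851). For miR-148a cells the call was lost when scaled by library totals (-0.34), under a stricter filter (-0.40), in the 4 libraries of the line alone (-0.40) and without any 1 library other than those of the control line with anti-IgM (-0.32 to -0.52).

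Pold1, the catalytic subunit of polymerase delta, had 194 and 226 CPM in miR-148a cells with anti-IgM, against 177 and 171 CPM without it, a difference of 0.27 ± 0.10 (adjusted p = 0.0784, and 0.0118 with the block). The log2 ratio of Pold2 to Pold1 was -1.35 and -1.37 in miR-148a cells with anti-IgM and -0.75 and -0.61 without it, and -1.43 and -1.25 in control cells with anti-IgM and -0.85 and -0.62 without it. The ratio was lower in every anti-IgM library than in every unstimulated one. Fen1, the flap nuclease, had 135 and 147 CPM in miR-148a cells with anti-IgM, against 167 and 175 CPM without it (-0.27 ± 0.13, adjusted p = 0.139, and 0.00877 with the block). Its exons overlap Tmem258 and Gm10143 on the opposite strand over 84.2% of their length, and Tmem258 was not called in either line (0.02 ± 0.11 in the control line). No value is given for Gm10143, and the part of these overlaps in the Fen1 values, here and between the lines, was not tested. Lig1, which seals the nicks and has the highest level of the role before scaling to length, had 244 and 299 CPM with anti-IgM, against 270.0 and 306 CPM without it, and these overlapped.

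In deoxynucleotide supply Rrm2 was the member called higher, 1 of 5 in the miR-148a line, where 14.7% of all genes were called higher. Rrm2, the small subunit of ribonucleotide reductase and the one whose level changes most in the cell cycle, had 410.2 and 485 CPM in miR-148a cells with anti-IgM, against 329 and 376 CPM without it, and 459 and 456 CPM in control cells with anti-IgM, against 376 and 368 CPM without it. Every anti-IgM library lay above every unstimulated one. The log2 fold change was 0.35 ± 0.11 in the miR-148a line (adjusted p = 0.0417) and 0.30 ± 0.11 in the control line (adjusted p = 0.0938, and 0.00983 with the block). In the miR-148a line the call was lost in the 4 libraries of the line alone (0.35, adjusted p = 0.0876) and without any 1 library other than replicate 1 of its anti-IgM group. The values were 0.25 and 0.44 with replicate 1 or 2 of its unstimulated group left out, 0.22 with replicate 2 of its anti-IgM group left out, and 0.34 to 0.35 without a control library (adjusted p between 0.0599 and 0.281 in all).

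Rrm1, the large subunit, had 422 and 387 CPM in miR-148a cells with anti-IgM, against 387 and 393 CPM without it, and 453 and 399 CPM in control cells with anti-IgM, against 437 and 408 CPM without it. These groups overlapped in both lines, at 0.05 ± 0.10 and 0.01 ± 0.10. The log2 ratio of Rrm2 to Rrm1 was -0.04 and 0.33 in miR-148a cells with anti-IgM and -0.24 and -0.06 without it. For control cells it was 0.02 and 0.19 with anti-IgM and -0.22 and -0.15 without it. Dut went the other way in the miR-148a line, at 133 and 144 CPM with anti-IgM, against 168 and 169 CPM without it, a difference of -0.28 ± 0.10 that passed with the block alone (adjusted p = 0.0595, and 0.0101 with the block). Tyms and Tk1 were at 0.12 and 0.13 in that line and were not called.

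Beyond the members, 71 further genes of these pathways were measured and tested, in 4 lists. In the miR-148a line 7 were called higher and 28 lower with anti-IgM, and in the control line 2 were called higher and 13 lower. The shares called lower, 28 of 71 and 13 of 71, stand beside 14% and 7.45% of all genes. Those called higher, 7 of 71 and 2 of 71, stand beside 14.7% and 9.6%. With the block 11 were called higher and 34 lower in the miR-148a line and 5 higher and 27 lower in the control line. Over all genes the block called 22.8% higher and 23.3% lower in the miR-148a line and 17.6% higher and 17.2% lower in the control line. The median log2 fold change was -0.21 and -0.14, and the lists differed among themselves. The number called in either direction was 15 when replicate 1 of the unstimulated miR-148a group was left out and 19 when replicate 2 of its anti-IgM group was, against 35 with all libraries. In the control line, where 15 were called, 2 remained in number when replicate 1 of its anti-IgM group was left out, and 8 and 4 when replicate 1 or 2 of its unstimulated group was.

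Of 12 purine synthesis genes, 9 were called lower in the miR-148a line and 4 in the control line, with none called higher and medians of -0.47 and -0.28. Over all genes 14% and 7.45% were called lower. The values of 12 were negative in the miR-148a line and those of 11 in the control line. Gart, which carries out several early steps of the pathway, had 190.5 and 177 CPM in miR-148a cells with anti-IgM, against 354 and 351 CPM without it, and 220.3 and 256 CPM in control cells with anti-IgM, against 361 and 374 CPM without it (-0.94 ± 0.10, adjusted p = 0.000624, and -0.62 ± 0.10, adjusted p = 0.00535). Atic, which completes the purine ring, was at -0.85 ± 0.11 (adjusted p = 0.000981) and -0.56 ± 0.11 (adjusted p = 0.00979). Ppat, the enzyme of the committed step, was at -0.71 ± 0.10 and -0.40 ± 0.10 (adjusted p = 0.0016 and 0.0302). Gart groups did not overlap in either line.

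Of 20 pyrimidine and other deoxynucleotide genes, 11 were called lower and 3 higher in the miR-148a line. The control line had 7 called lower and 1 higher, and the medians were -0.39 and -0.33. Over all genes 14% were called lower and 14.7% higher in the miR-148a line, and 7.45% and 9.6% in the control line. Ctps, which makes CTP, had 87.5 and 71.1 CPM in miR-148a cells with anti-IgM, against 169 and 157 CPM without it, and 80.7 and 104 CPM in control cells with anti-IgM, against 157 and 156 CPM without it (-1.04 ± 0.14, adjusted p = 0.00137, and -0.76 ± 0.14, adjusted p = 0.0095). Shmt1, a folate enzyme that feeds thymidylate synthesis, was at -1.20 ± 0.16 and -0.82 ± 0.16 (adjusted p = 0.00121 and 0.0103). Dctd, which makes dUMP by deaminating dCMP, was at -1.49 ± 0.19 in the miR-148a line (adjusted p = 0.00106), with 4.11 and 3.88 CPM with anti-IgM, against 11.6 and 10.8 CPM without it. In the control line Dctd was at -0.39 ± 0.18 (adjusted p = 0.171), and the difference between the lines in this response, -1.1005 ± 0.263, did not pass (adjusted p = 0.9996, and 0.117 with the block). Samhd1, which breaks deoxynucleotides down, rose by 0.94 ± 0.15 and 0.64 ± 0.15 (adjusted p = 0.00213 and 0.019), to 257 and 261 CPM and to 221 and 179.9 CPM with anti-IgM, against 127 and 144 CPM and 142.99 and 113 CPM without it.

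Of 16 other origin and helicase genes, 5 were called lower and 1 higher in the miR-148a line, and 2 lower and none higher in the control line. Over all genes 14% were called lower and 14.7% higher in the miR-148a line, and 7.45% and 9.6% in the control line. Orc4, a further subunit of the origin recognition complex, was at -0.60 ± 0.14 (adjusted p = 0.0125) and -0.52 ± 0.14 (adjusted p = 0.0346), and the phosphatase Cdc25a, which activates the cyclin-dependent kinases of S phase entry, at -0.75 ± 0.11 (adjusted p = 0.00169) and -0.57 ± 0.11 (adjusted p = 0.0103). Of 23 other polymerase and fork genes, 3 were called lower and 3 higher in the miR-148a line, and none lower and 1 higher in the control line. None of these counts for the polymerase and fork list exceeds the shares of all genes just given. Pold4, the smallest subunit of polymerase delta, rose by 0.86 ± 0.15 (adjusted p = 0.00359) and 0.73 ± 0.15 (adjusted p = 0.0128). Top2a, the topoisomerase that separates replicated DNA, rose by 0.47 ± 0.10 in the miR-148a line (adjusted p = 0.0101).

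**Figure D4:**
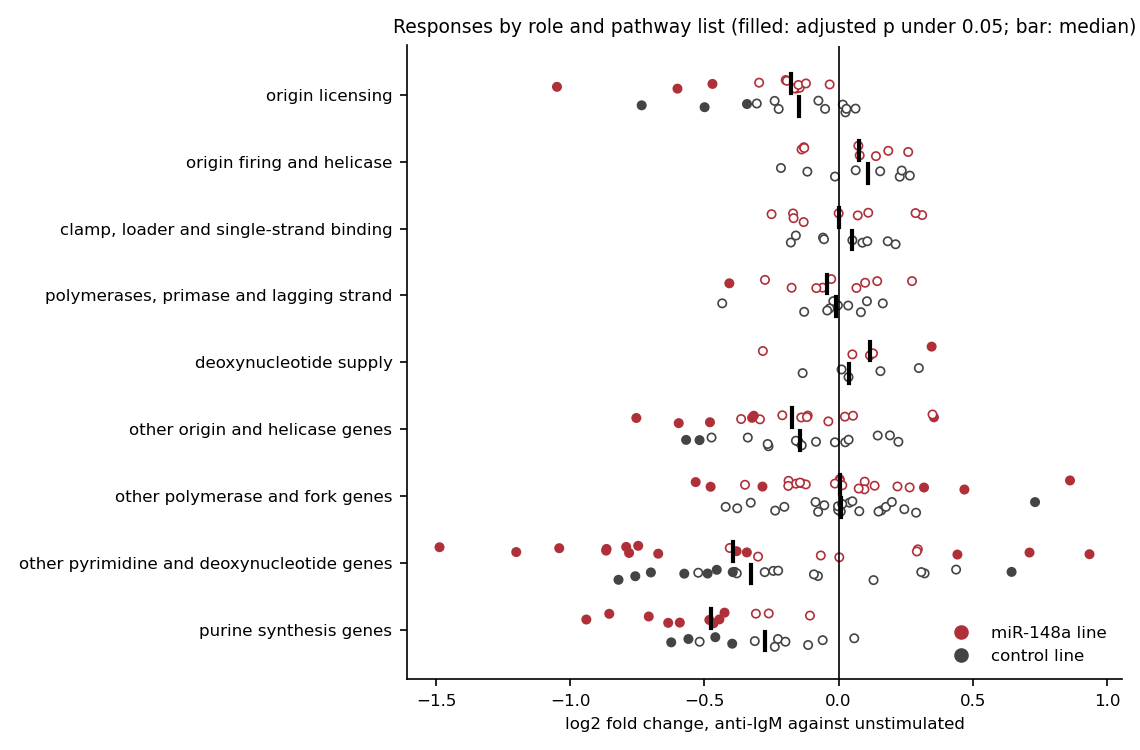
Each point is the log2 fold change of a gene with anti-IgM, red in the miR-148a line and grey in the control line, for the 5 roles of the members and the 4 lists of other pathway genes; filled points passed the adjusted p threshold and black bars are medians. The purine and the other pyrimidine and deoxynucleotide lists have their medians between -0.28 and -0.47, while those of the fork roles lie near 0.

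Comparing the lines, no member was called in either condition. With anti-IgM 0 of 44 passed in edgeR, against 2.52% of all genes in either direction, with 11 members and 2059 of all genes at an unadjusted p under 0.05 and 0 members by DESeq2. Without stimulation 0 of 44 members passed in edgeR, against 0.487% of all genes, with 3 members and 1286 of all genes at an unadjusted p under 0.05 and 0 members by DESeq2. With the block 8 members were called lower with anti-IgM, against 8.24% of all genes, and 1 was called lower without stimulation, against 3.37% of all genes, and none higher.

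The member values leaned to one side. Of 44 members 37 had a negative log2 fold change of miR-148a cells against control cells with anti-IgM, and 37 without stimulation, against 51.5% and 48.7% of all genes. The medians were small, -0.13 with anti-IgM and -0.09 without stimulation, against -0.01 and 0.01 over all genes. The libraries of the miR-148a line all lay below those of the control line for 23 members with anti-IgM and 20 without stimulation, against 22.1% and 21.2% of all genes, and above them for 1 and 2, against 21.7% and 23.1%. Within runs the medians were -0.16 in the run of replicate 1 and -0.10 in the run of replicate 2 with anti-IgM, and -0.13 and -0.05 without stimulation. The members were not chosen independently of each other and share the libraries, so these counts are descriptions.

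**Figure D5:**
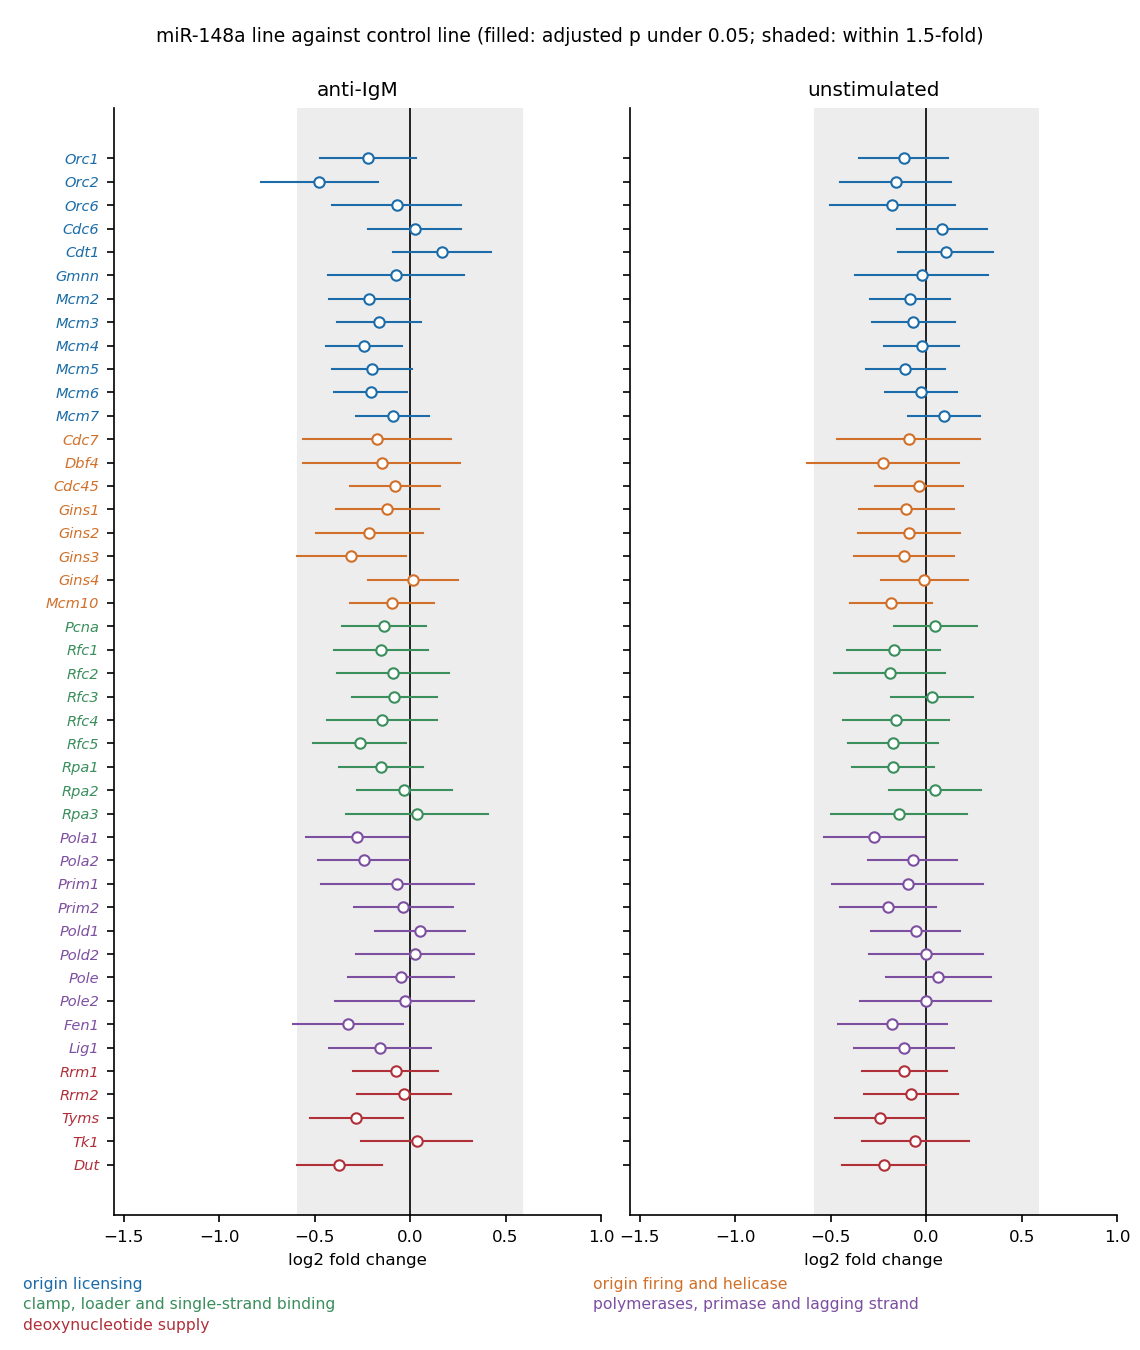
Points are log2 fold changes of miR-148a cells against control cells for each member, coloured by role, with 95% intervals, with anti-IgM (left) and unstimulated (right); no point is filled, since none passed the adjusted p threshold. Most points lie just left of 0, and with anti-IgM Orc2 and Dut lie farthest left.

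Pola1, the catalytic subunit of polymerase alpha, had 68.3 and 79.1 CPM in miR-148a cells with anti-IgM, against 84.9 and 94.1 CPM in control cells with anti-IgM. Without stimulation it had 65.7 and 72.3 CPM in the miR-148a line, against 79.8 and 87.0 CPM in the control line. The lines did not overlap in either condition, at -0.28 ± 0.12 (adjusted p = 0.252, and 0.0332 with the block) with anti-IgM and -0.27 ± 0.12 (adjusted p = 0.412, and 0.0452 with the block) without it. It was the member called with the block in both conditions.

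Dut, whose 3′ UTR holds the 2 seed matches printed above, had 133 and 144 CPM in miR-148a cells with anti-IgM, against 189 and 170.02 CPM in control cells with anti-IgM. Without stimulation it had 168 and 169 CPM in the miR-148a line, against 198 and 195 CPM in the control line. The lines were apart in both conditions. The difference was -0.37 ± 0.10 with anti-IgM (adjusted p = 0.0964, and 0.00795 with the block) and -0.22 ± 0.10 without it (adjusted p = 0.432, and 0.102 with the block).

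Orc2 differed most between the lines with anti-IgM, at -0.47 ± 0.14 (adjusted p = 0.116, and 0.00723 with the block), and its values there were 68.4 and 52.1 CPM in the miR-148a line, against 79.5 and 86.6 CPM in the control line. The difference was -0.22 in the run of replicate 1 and -0.73 in that of replicate 2, and with replicate 1 of the miR-148a anti-IgM group left out it passed the threshold (-0.68, adjusted p = 0.0429). Nif3l1, which overlaps it, was at -0.49 ± 0.14 in the same comparison (adjusted p = 0.114, and 0.0291 with the block) and at -0.41 ± 0.12 without stimulation (adjusted p = 0.227, and 0.0461 with the block), and its part in the Orc2 difference was not tested.

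The other members called lower with the block under anti-IgM were Fen1 (135 and 147 CPM in the miR-148a line, against 161 and 192 CPM in the control line), Mcm4 (326 and 344 CPM against 409 and 384 CPM), Rfc5 (127 and 119.7 CPM against 147 and 149 CPM), Pola2 (106 and 116 CPM against 123 and 139 CPM) and Tyms (71.7 and 77.6 CPM against 94.4 and 87.7 CPM), in the same order of lines. None of their libraries overlapped between the lines. The log2 fold changes were between -0.24 and -0.32, with adjusted p values of 0.193 to 0.265 without the block and 0.0132 to 0.0498 with it. Wsb2, which overlaps Rfc5, was at -0.41 ± 0.18 in this comparison, with overlapping lines (adjusted p = 0.280, and 0.0519 with the block). Pola2 is the regulatory subunit of polymerase alpha, so both polymerase alpha subunits were among these members.

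Of the 71 other pathway genes, Umps, which makes UMP in pyrimidine synthesis, was lower in miR-148a cells with anti-IgM, at 81.2 and 70.7 CPM, against 113 and 109 CPM in the control line (-0.54 ± 0.10, adjusted p = 0.0372). No other passed there, and none without stimulation. With the block 21 were called lower and 4 higher with anti-IgM, against 8.24% and 7.9% of all genes, and 1 lower and 1 higher without stimulation, against 3.37% and 3.91%. Leaving out 1 library gave 0 to 2 calls there, and the libraries of the anti-IgM groups alone gave 0.

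The difference between the responses of the lines, tested as an interaction, was not called for any member, with and without the block, against 0% of all genes without the block and 0.0974% with it. No member had an unadjusted p under 0.05, as 484 of all genes did, and DESeq2 called 0 members. The largest value was that of Orc2, -0.32 ± 0.19 (adjusted p = 0.9996, and 0.387 with the block), with run values of -0.09 and -0.54. Over the members the values ran from -0.32 to 0.18 with a median of -0.04, and the 95% interval lay within 1.5-fold for 39 of 44. The responses of Orc1, Orc2 and Mcm2 were each larger in size in the miR-148a line, and none of these differences passed the test.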

How the data were processed

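RNA from 8 libraries, 2 for each of 4 groups, was sequenced, and the authors deposited a table of estimated counts per gene, which need not be whole (9.16 to 12.4% of values in a library were not). Per the submitters' processing notes the tools included TopHat2 2.0.13, Bowtie2, cutadapt, edgeR, CASAVA 1.8 and Partek 6.15.0730, with builds mm10 and GRCm38. The sources used here state neither their parameters nor whether counting used the strand. Columns were assigned by the run prefix and sample number that the labels share with the column names; in replicate 2 the labels add a suffix that the columns lack. A set of 27 rows with dates for names (0.213 to 0.235% of counts in a library) was left out.

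Estimated counts were rounded and tested in R 4.3.3 with edgeR 4.0.16 (limma 3.58.1), by its quasi-likelihood F test on all 8 libraries with 4 group means, filterByExpr and TMM scaling. Benjamini-Hochberg adjustment ran over 11291 genes in each of 5 contrasts, with calls at 0.05, and fold changes are log2. Residual degrees of freedom were 4, and 3 with the block. The procedure was tested on simulated data with the same spread for all genes, no run effect and changes larger than those of nearly all members. That test thus does not show how well changes of the size seen in most members are found. The replicate number, which the labels give as a run, was the block: deviations from group means correlated between same-numbered libraries at 0.490 to 0.574 over 6 pairs of groups. Replicates differed by more than sampling noise (9.40 to 13.6 chi-square units per gene). A floor of 3 counts equals 0.166 to 0.502 CPM, which covers counting error only. Alternatives were DESeq2 1.42.0, other scalings and filters, the compared groups alone and leaving out each library. Gene and UTR positions came from GENCODE on GRCm38, and motif searches ran in Python 3.11.15.

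The members, lists and tests were chosen with earlier results of these data known. Values are given for members called in any contrast with or without the block, at most 4 per role and contrast by size, and for the member with the most CPM of each role; for the other lists, for at most 4 called genes per list and contrast. Values of Mcm3, Mcm6, Mcm7, Cdt1, Gmnn, Cdc7, Gins2, Gins3, Pcna and Tk1, and those of overlapping genes, were added after they were seen.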

Additional observations from a re-analysis of the deposited data

How the results depend on the processing

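The replicate block changed most counts. With it the members called numbered 13 in the miR-148a line and 9 in the control line for the response to anti-IgM, 8 between the lines with anti-IgM and 1 without stimulation, against 5, 3, 0 and 0 without it, and 0 for the interaction in both fits. Over all genes the block gave 5205 and 3929 calls for the responses (3238 and 1925 without it), 1822 and 823 between the lines with and without anti-IgM (284 and 55), and 11 for the interaction (0). The libraries of the compared groups alone left 3 members called for the response of the miR-148a line. In a separate comparison, between the lines with anti-IgM, such a fit left 16 of all genes called, so these counts are not a share of each other. With no filter 450 and 179 of all genes were called between the lines with and without anti-IgM, and DESeq2 called 152 without stimulation and 1 for the interaction. Other scalings and the stricter filter kept every count of members and of all genes within 1.5 times.

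Leaving out each library in turn gave 3 to 7 member calls in the miR-148a line, 0 to 3 in the control line, 0 to 1 between the lines with anti-IgM, 0 without stimulation and 0 for the interaction. Over all genes the ranges were 1481 to 3155, 540 to 2082, 0 to 222, 0 to 76 and 0. A group left with 1 library was assumed to vary like the others. Member calls kept their side of the threshold in 40 of the left-out fits and missed it in 24, and in 50 and 6 of the other alternatives, and no value of a called member changed sign. Where a call was lost the cause was not tested. Libraries of 5810227 to 18660373 counts and 2 replicates limit what can be called, and a missed threshold does not show that values were alike.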
